A study of Mus musculus with 23 samples.

Results

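Medullary thymic epithelial cells (mTECs) of mice without Aire were sorted by their surface level of MHC class II into mTEChi and mTEClo, and the RNA of the 2 fractions is compared here. The comparison uses 8 of the 23 libraries of the study: 4 of KO mTEChi and 4 of KO mTEClo. All 8 came from male C57BL/6 mice, and each fraction had 2 libraries from mice of 5 weeks (replicates 1 and 2) and 2 from mice of 6 weeks (replicates 3 and 4). Both fractions carry the Aire knockout. The allele of the knockout is not stated in the labels. Live cells without CD45 and Ly51 and with EpCAM went into lysis buffer directly from the sorter, split into an MHC class II high and a low gate. For a reference without the knockout, the same gates in wild-type (WT) C57BL/6 mice of 4 to 5 weeks and both sexes gave 7 mTEChi and 8 mTEClo libraries. The labels do not say that replicates are different animals, so p-values measure the spread between these libraries. Values are CPM, the standard scaling of read counts to the library total (here with TMM factors), in total-RNA libraries, and a log2 difference is mTEChi minus mTEClo. Where 4 values are listed, they follow replicates 1 to 4.

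mTECs purge and shape the T-cell repertoire by displaying proteins of other tissues to developing thymocytes. mTEClo cells include progenitors and chemokine-producing cells as well as specialised cells such as tuft cells, while mTEChi cells carry much MHC class II and costimulatory protein. In WT thymus most Aire protein is found in the mTEChi fraction, where Aire switches on many genes that are otherwise restricted to single tissues. The comparison asks how far the 2 fractions still differ in RNA when Aire is missing.

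Library totals were 1639231 to 3938588 counts in KO mTEClo and 2528049 to 3106026 in KO mTEChi. They were 1628778 to 3883437 in WT mTEClo and 1602125 to 3231079 in WT mTEChi. Genes with at least 1 count numbered 23449 to 27046 in KO mTEClo, 24991 to 26624 in KO mTEChi and 28028 to 32252 in WT mTEChi. The 37 mitochondrially encoded genes have counts in KO mTEClo replicates 1 and 2 (6225 and 6178) and in every WT library, but no count in the other 6 KO libraries. They are part of the library totals and gene numbers above, but were left out of the totals behind CPM and of the tests. The counts of each gene group are also given without KO mTEClo replicates 1 and 2. RNA of the Aire gene itself (ENSMUSG00000000731, chr10:78030022-78043610) was at 38.9, 39.1, 21.4 and 17.1 CPM in KO mTEChi and at 7.61, 3.14, 0 and 0.245 in KO mTEClo. In WT it was at 821 ± 55.1 CPM (SD, n = 7) in mTEChi and 69.5 ± 33.4 (SD, n = 8) in mTEClo. The residual KO signal still differed between the gates, with a log2 difference of 3.899 ± 0.81 (SE) and an adjusted p of 3.6e-04 in edgeR's quasi-likelihood test, the test behind every adjusted p below. Without KO mTEClo replicates 1 and 2, where the remaining mTEClo libraries hold 1 Aire count, the fitted difference was 7.35 (adjusted p = 4.4e-04). The WT gate difference was 3.58, and the KO and WT differences were not told apart by the test (0.32, adjusted p = 0.86).

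Of 19301 tested genes, 5561 (28.8%) were higher in KO mTEChi and 5461 (28.3%) were higher in KO mTEClo at an adjusted p under 0.05. The change was over 2-fold for 3546 of the genes higher in mTEChi and 3239 of those higher in mTEClo. It was over 4-fold for 1820 and 1634. The middle 50% of all tested genes lay between -0.65 and 0.72, with a median log2 difference of -0.01. In 4733 genes (24.5%) every KO mTEChi library was above every KO mTEClo library, and in 4350 (22.5%) every one was below. Among 15621 protein-coding genes 4436 were higher and 4579 lower in mTEChi. Pseudogenes leaned to mTEChi, with 196 of 534 higher and 95 lower. Counts of members in the gene groups below are to be read beside the 28.8% and 28.3% of all tested genes. In RNA from sorted bulk fractions, fewer cells of a type and less RNA per cell cannot be told apart.

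The 4 genes taken as markers of the comparison are Antxr1, Il6st, Marc1 and Syn2, and the first 2, both receptors, were high in mTEClo. Antxr1 (ENSMUSG00000033420, chr6:87133853-87335821), a membrane receptor that binds collagen and the anthrax toxin, had 5.25, 9.38, 9.17 and 11.6 CPM in KO mTEChi. In KO mTEClo it had 320.3, 327, 348 and 339 CPM, so the lowest mTEClo library lay far above the highest mTEChi library. The log2 difference was -5.22 ± 0.14 (SE; adjusted p = 1.4e-21), against -3.33 in WT. Il6st (ENSMUSG00000021756, chr13:112464070-112510086) encodes gp130, the signalling subunit shared by receptors of the IL-6 family. Il6st was at 65.2, 71.8, 63.2 and 53.6 CPM in KO mTEChi and at 662, 703, 659 and 621 in KO mTEClo, again with no overlap. The log2 difference of Il6st was -3.38 ± 0.10 (SE; adjusted p = 1.4e-21) in KO and -2.35 in WT.

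The other two markers were high in mTEChi. Marc1 (ENSMUSG00000026621, chr1:184786767-184811313), a mitochondrial enzyme that reduces N-oxygenated compounds, had 230.1, 248, 242 and 245 CPM in KO mTEChi. The KO mTEClo libraries had 19.0, 15.1, 18.6 and 16.2 CPM of Marc1, a difference of 3.80 ± 0.11 (SE; adjusted p = 3.8e-21). Syn2 (ENSMUSG00000009394, chr6:115134902-115282006), which encodes the synaptic vesicle protein synapsin II, stood at 429, 431, 382 and 401 CPM in KO mTEChi and 46.2, 43.9, 33.8 and 43.2 in KO mTEClo. That is a difference of 3.31 ± 0.13 (SE; adjusted p = 8e-19). Replicates of either fraction were close together for all 4 genes, except that Antxr1 in mTEChi spanned 5.25 to 11.6 CPM. Compared with WT, the gate difference was larger in KO for Antxr1, Il6st and Syn2, where KO minus WT was -1.89, -1.03 and 1.00 (adjusted p = 7.1e-09, 7.2e-08 and 2.3e-05). For Marc1 it was smaller (KO minus WT -0.61, adjusted p = 0.0039, or 0.11 with counts summed over libraries of the same group, age and sex), although its level in KO mTEChi was above the WT mTEChi mean of 121 CPM.

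**Figure D1:**
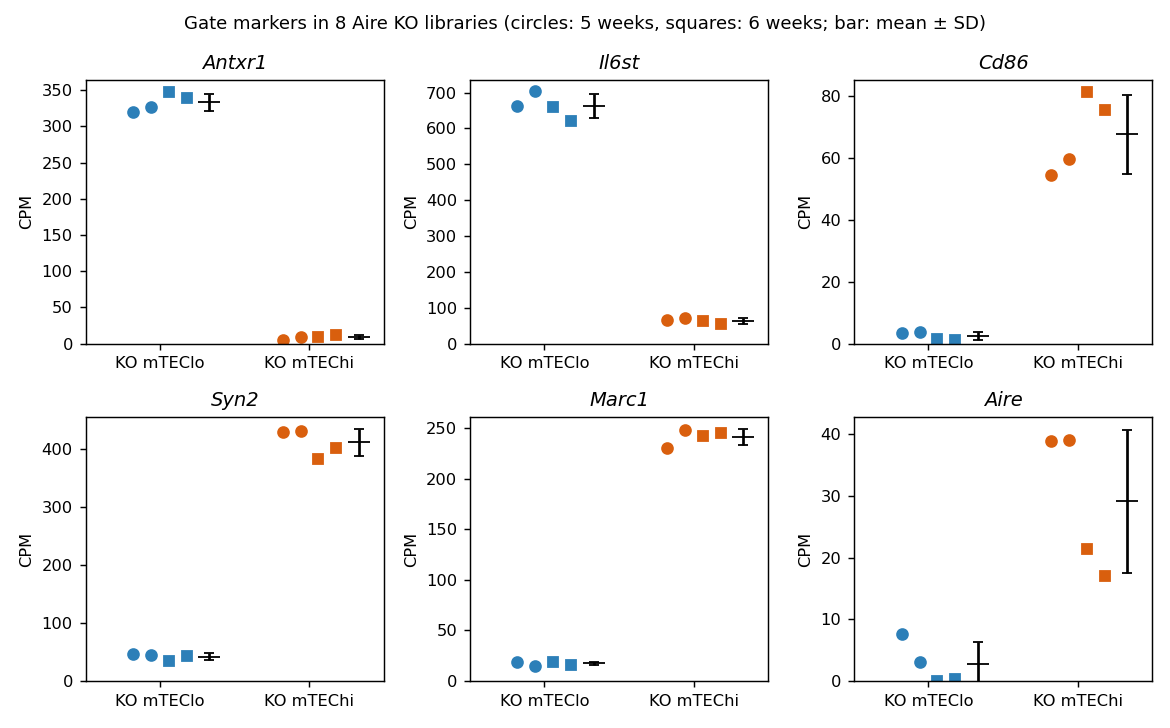
CPM (linear axes from 0) of Antxr1, Il6st, Cd86, Syn2, Marc1 and Aire in each of the 8 KO libraries, with circles for mice of 5 weeks, squares for 6 weeks, and a black bar for the mean ± SD of each fraction. Antxr1 and Il6st are high in the 4 mTEClo libraries, the other 4 genes in the 4 mTEChi libraries, and no gene's fractions overlap.

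Genes of the MHC class II pathway were the basis of the sort, so their levels describe the gate. Of 18 tested, 13 were higher and 2 lower in KO mTEChi, with a median log2 difference of 0.85 beside -0.01 over all genes. H2-Aa (ENSMUSG00000036594, chr17:34282744-34287823), an MHC class II alpha chain, had 719, 699.7, 586 and 684 CPM in KO mTEChi and 536, 619, 330.1 and 305 in KO mTEClo. The 2 mTEClo libraries of 5 weeks were higher than the 2 of 6 weeks, and the log2 difference of 0.60 became 1.08 without them. H2-Eb1 (chr17:34305867-34316674), a beta chain, followed with 614, 599, 515 and 588 CPM against 463, 534, 309.9 and 296 (0.54, or 0.93 without those 2 libraries). The sort was on the protein, and the RNA of both classical chains was high in both fractions. H2-Ob (ENSMUSG00000041538, chr17:34238903-34254414), the beta chain of the loading inhibitor H2-O, differed far more: it had 255, 274, 276 and 291 CPM in mTEChi and 38.6, 39.5, 32.0 and 36.3 in mTEClo. Its log2 difference was 2.92 ± 0.13 (SE; adjusted p = 4e-17). Ciita, the transactivator of the pathway (chr16:10480059-10528418), was at 958 ± 177 CPM in mTEChi and 333 ± 142 in mTEClo (SD, n = 4 each), a difference of 1.54 and of 2.15 without the 2 libraries. The loading genes H2-DMa (0.94), H2-DMb1 (1.47), H2-Oa (2.27) and the protease gene Ctss (2.06) were also higher in mTEChi. The 2 lower genes include Ctsl, a lysosomal protease that cuts the invariant chain in cortical epithelium, with 31.1, 19.6, 21.1 and 35.4 CPM in mTEChi and 302, 328, 263 and 253 in mTEClo.

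MHC class II promoters carry a Y box, whose core is ATTGG on one strand and CCAAT on the other. Both strands of the 250 bases before the most upstream RefSeq start of each gene were searched (build GRCm38.p6). Other starts of a gene were not searched. The core is present in 34.5% of 27025 promoters. It is present in 10 of the 14 genes of the MHC class II pathway group that have a promoter sequence. These 14 include Ctsl, Ctss, Ifi30, Lgmn, Rfx5 and Rfxank, which encode no class II chain. Lgmn, Rfx5 and Rfxank are among the 10. The promoters of the class II chains H2-Aa, H2-Eb1 and H2-Ob are shown for the spacing of the core, in capitals, from the start at the right-hand end.
H2-Aa (chr17:34287824-34288073, minus strand): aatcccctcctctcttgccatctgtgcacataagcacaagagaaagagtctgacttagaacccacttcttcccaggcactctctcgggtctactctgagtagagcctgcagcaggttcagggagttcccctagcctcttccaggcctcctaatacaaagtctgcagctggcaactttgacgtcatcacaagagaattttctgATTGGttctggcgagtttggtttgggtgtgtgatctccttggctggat
H2-Eb1 (chr17:34305617-34305866, plus strand): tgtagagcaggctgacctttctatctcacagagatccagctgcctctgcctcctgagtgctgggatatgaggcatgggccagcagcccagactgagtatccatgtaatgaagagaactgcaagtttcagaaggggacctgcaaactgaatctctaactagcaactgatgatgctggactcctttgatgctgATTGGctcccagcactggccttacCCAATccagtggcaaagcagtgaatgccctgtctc
H2-Ob (chr17:34238655-34238904, plus strand): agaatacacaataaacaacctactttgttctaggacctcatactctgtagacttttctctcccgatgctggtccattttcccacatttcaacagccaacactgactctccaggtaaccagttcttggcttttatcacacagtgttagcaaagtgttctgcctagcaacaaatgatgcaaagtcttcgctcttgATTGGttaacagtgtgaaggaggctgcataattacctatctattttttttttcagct
The core lies 48 bases before the start in H2-Aa, 57 in H2-Ob, and 59 and 35 in H2-Eb1, with H2-Aa read on its own strand. A letter match describes the sequence and does not show binding.

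Maturation and costimulation genes were higher in KO mTEChi for 15 of 16 tested, with a median of 2.06 and none lower. Cd86 (ENSMUSG00000022901, chr16:36603869-36666081), a costimulatory ligand of T-cell CD28, had 54.2, 59.5, 81.2 and 75.3 CPM in mTEChi and 3.26, 3.76, 1.48 and 1.23 in mTEClo. No Cd86 values overlapped, and the difference was 5.01 ± 0.27 (SE; adjusted p = 9.2e-16). Cd80, the partner ligand (chr16:38455561-38496335), was at 137 ± 15.9 against 27.5 ± 12.4 CPM (SD, n = 4 each; 2.42, adjusted p = 8.2e-11). Cd83, which stabilises surface MHC class II, rose by 3.47 in KO and by 4.79 in WT, and that gap was past the threshold (-1.32, adjusted p = 0.0015). In WT all 16 genes were higher in mTEChi, with a median of 2.26. The KO gate difference was above the WT one for 3 genes and below it for 3, beside 10.4% and 14.1% of all tested genes.

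RANK, CD40 and NF-kB signalling drives mTEC maturation. In this group 18 of 23 tested genes were higher and 4 lower in KO mTEChi, with a median of 1.13, against 17 and 5 with a median of 0.63 in WT. Traf1, an adaptor of TNF receptors that NF-kB induces, had 405, 395, 305 and 326 CPM in mTEChi and 58.2, 50.8, 63.9 and 50.3 in mTEClo. Traf1 therefore rose by 2.67 ± 0.12 (SE; adjusted p = 1.9e-17). Tnfrsf11a, which encodes RANK, rose by 1.28 (adjusted p = 1.6e-06). Fezf2 (ENSMUSG00000021743, chr14:12342094-12348189), a transcription factor that drives a second set of tissue-restricted genes, had 342, 311, 283 and 329.8 CPM in mTEChi and 162, 162, 122 and 121 in mTEClo. The rise of Fezf2 was 1.17 ± 0.13 (SE; adjusted p = 6.1e-09), with every mTEChi library above every mTEClo library. Tnfrsf11b, the decoy receptor for the RANK ligand, was at 326 ± 12.7 CPM in mTEChi and 62.7 ± 18.2 in mTEClo (SD, n = 4 each), and Rel, an NF-kB subunit, at 273 ± 32.1 and 79.7 ± 24.4. Among the lower genes, Tnfaip3, which encodes the NF-kB inhibitor A20, fell by 1.60 and Traf5, another TNF receptor adaptor, by 2.99 (adjusted p = 3.4e-15 and 2.7e-13). Traf1, Tnfaip3 and Traf5 each had a gate difference further from 0 in KO than in WT (KO minus WT 1.21, -0.52 and -1.63).

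Genes known from mTEClo and progenitor cells were lower in KO mTEChi for 16 of 20 tested, and 2 were higher, with a median of -1.61. Krt5, a keratin of basal epithelium, stood at 108 ± 15.0 CPM in mTEChi and 547 ± 168 in mTEClo (SD, n = 4 each), a fall of 2.34 on the log2 scale. Krt14, its partner keratin, fell by 2.16, Trp63, the p63 factor of epithelial stem cells, by 1.33, and Pdpn, a surface glycoprotein of junctional progenitors, by 3.24 (adjusted p = 2.2e-12, 9.9e-11 and 3e-14). Cldn4, a tight-junction claudin, was 1 of the 2 that rose, at 178 ± 21.9 CPM in mTEChi and 47.8 ± 5.42 in mTEClo (SD, n = 4 each). In WT 15 of the 20 were lower, with a median of -1.16.

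The gp130 receptor family did not move as a block, with 8 of 16 tested genes higher, 6 lower and a median of 0.27, or 6 and 7 of 14 with a median of -0.08 on the KO libraries alone with a replicate block. The subunits that pair with gp130 to bind LIF and oncostatin M went the way of Il6st. Lifr (ENSMUSG00000054263, chr15:7090614-7197489), the LIF receptor, had 70.4, 76.7, 70.3 and 100.2 CPM in KO mTEChi and 1336, 1491, 1141 and 1079 in KO mTEClo, and its fall was 3.99 ± 0.15 (SE; adjusted p = 8e-19). Osmr, the oncostatin M receptor, was at 54.4 ± 3.37 against 398 ± 67.7 CPM (SD, n = 4 each), a fall of 2.87 (adjusted p = 5.6e-19). Every mTEClo library exceeded every mTEChi library for both genes. Other genes of the family went the other way: Tyk2, a Janus kinase, rose by 1.15, Stat3, the main transcription factor of the family, by 0.78, and the ligand gene Lif by 2.13 (adjusted p = 3.5e-07, 1.2e-06 and 1.5e-08). Stat3 was at 1055, 1024, 925 and 1015 CPM in mTEChi and 686, 736, 490.2 and 437 in mTEClo. Il27ra, the IL-27 receptor that pairs with gp130, had 18.8, 19.6, 6.45 and 8.73 CPM in mTEChi and 0.544, 1.88, 0 and 0.981 in mTEClo.

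Extracellular matrix genes were lower in KO mTEChi for 30 of 42 tested and higher for 9, with a median of -1.01. WT had 23 lower and 14 higher, with a median of -0.57. Sparc, a secreted collagen-binding protein, had 2.19, 2.04, 3.73 and 1.66 CPM in KO mTEChi and 99.5, 116, 137 and 142 in KO mTEClo, a fall of 5.63 ± 0.20 (SE; adjusted p = 2.1e-19). Markers of fibroblasts moved the same way in part: 9 of 18 tested (50%) were lower and 6 (33.3%) higher in KO mTEChi. Over all tested genes 28.3% were lower and 28.8% higher. The lower fibroblast markers included Col3a1 (-5.02), Col6a1 (-4.47), Col6a2 (-5.12) and Pdgfra (-5.95). The 6 higher ones were Pdgfrb (2.71), Thy1 (4.13), Lum (1.89), Dpp4 (0.93), Mfap5 (3.28) and Des (0.92), with Pdgfrb at 125, 122, 95.8 and 102 CPM in mTEChi and 14.7, 16.9, 18.6 and 16.9 in mTEClo. The summed fibroblast markers ranged from 1920 to 2300 CPM in KO mTEClo (median 2150) and from 714 to 776 in KO mTEChi (median 737), with none of the 20 listed genes at 0 throughout a fraction and none shared with the matrix list. WT ranged from 1670 to 2340 CPM in mTEClo and from 977 to 1100 in mTEChi. The part of such cells in the matrix result was not tested.

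Blood-cell markers went the other way. The summed T-cell markers were at 100 to 138 CPM in KO mTEClo (median 118) and 322 to 493 in KO mTEChi (median 417), with 7 of 15 tested higher and 2 lower, and with Ptcra and Trbc1 at 0 in mTEClo. In mTEChi most of that sum is Tcf7, at 316, 303, 204 and 234 CPM in mTEChi and 35.4, 25.7, 22.2 and 13.2 in mTEClo, while Cd3g and Cd8a, which mark T cells, were at 1.63 CPM or below in each KO library and Bcl11b fell (-0.84). Cd4 (3.66), Trac (3.20) and Rag1 (3.27) rose. The B-cell markers summed to 217 to 287 CPM (median 265) and 768 to 871 (median 821), with 12 of 13 higher. Markers of dendritic cells, macrophages and neutrophils summed to 221 to 282 CPM (median 275) and 718 to 776 (median 744), with 10 of 19 higher, 1 lower and Siglech at 0 in both fractions. Ptprc, which encodes the CD45 used to exclude blood cells, was at 6.12, 6.93, 5.77 and 5.41 CPM in mTEChi and 16.9, 4.39, 8.59 and 13.2 in mTEClo and did not pass the test (-0.85, adjusted p = 0.073). Epcam, the positive sort marker, was at 236, 221, 200 and 234 CPM and 249, 264, 232 and 253 CPM and did not pass either (-0.16, adjusted p = 0.21). Endothelial markers summed to 318 to 372 CPM in mTEChi (median 372) and 260 to 364 in mTEClo (median 327), with Sox17 and Tie1 at 0 in both fractions. Red-cell markers summed to 17.7 to 32.4 CPM in mTEChi and 8.83 to 14.1 in mTEClo, with Hba-a1, Hba-a2, Hbb-bs and Hbb-bt at 0 in mTEChi. Most of that sum is Alas2, at 31.9, 30.6, 17.7 and 21.6 CPM in mTEChi and 13.05, 9.41, 8.585 and 8.584 in mTEClo. Of the 7 red-cell genes 2 were tested, with 1 higher and 0 lower. The part of such cells in the costimulation, chemokine and class II results was not tested. Markers of thymic epithelium itself were strong in both fractions: the mTEC genes summed to 3520 to 4230 CPM in mTEChi and 2790 to 4570 in mTEClo, with 8 of 15 higher and 4 lower. Genes known from cortical epithelium summed to 2340 to 2690 and 2040 to 2110 CPM. Of 18 tested 7 (38.9%) were higher and 8 (44.4%) lower, beside 28.8% and 28.3% of all tested genes.

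Interferon-stimulated genes were mostly higher in mTEClo: 27 of 36 tested were lower and 7 higher in KO mTEChi, with a median of -1.15. Interferons turn on these genes through STAT factors and IRF9, which bind a repeat of GAAA called the interferon-stimulated response element. Ifit3 (ENSMUSG00000074896, chr19:34583531-34588731), an antiviral RNA-binding family member, had 0.438, 1.63, 1.36 and 1.66 CPM in KO mTEChi and 30.5, 28.9, 38.8 and 52.7 in KO mTEClo. Ifit3 fell by 4.87 ± 0.32 (SE; adjusted p = 9.4e-14), with no overlap between the fractions. Gbp3, a guanylate-binding GTPase (chr3:142560026-142573209), had 7.44, 8.97, 3.73 and 7.90 CPM in mTEChi and 63.6, 65.2, 65.7 and 63.3 in mTEClo, a fall of 3.22 (adjusted p = 1.1e-16). Isg15, a ubiquitin-like modifier (chr4:156199424-156200818), had 3.50, 1.63, 2.72 and 3.33 CPM against 15.8, 11.3, 14.5 and 10.3, a fall of 2.19 (adjusted p = 4.5e-09). Oas2, which senses double-stranded RNA, fell by 5.46 (adjusted p = 5.1e-13).

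Ifit1 (ENSMUSG00000034459, chr19:34640871-34650009), a neighbour of Ifit3 in the same gene cluster, moved the other way. It had 108, 112, 175 and 176 CPM in KO mTEChi and 70.7, 66.5, 92.1 and 107 in KO mTEClo, a rise of 0.75 ± 0.15 (SE; adjusted p = 7e-05). The lowest mTEChi library was only just above the highest mTEClo library. In WT Ifit1 was lower in mTEChi, at -0.40 (adjusted p = 0.0014), and the KO and WT differences were apart by 1.14 (adjusted p = 2.5e-05). Over the 36 genes WT had 29 lower and 3 higher in mTEChi with the same median of -1.15. The KO gate difference was above the WT one for 10 genes and below it for 13, beside 10.4% and 14.1% of all tested genes. The summed levels of the 36 genes were 3520 to 3590 CPM in KO mTEClo and 2280 to 2360 in KO mTEChi, beside 5380 to 6220 and 2730 to 3120 in WT.

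**Figure D2:**
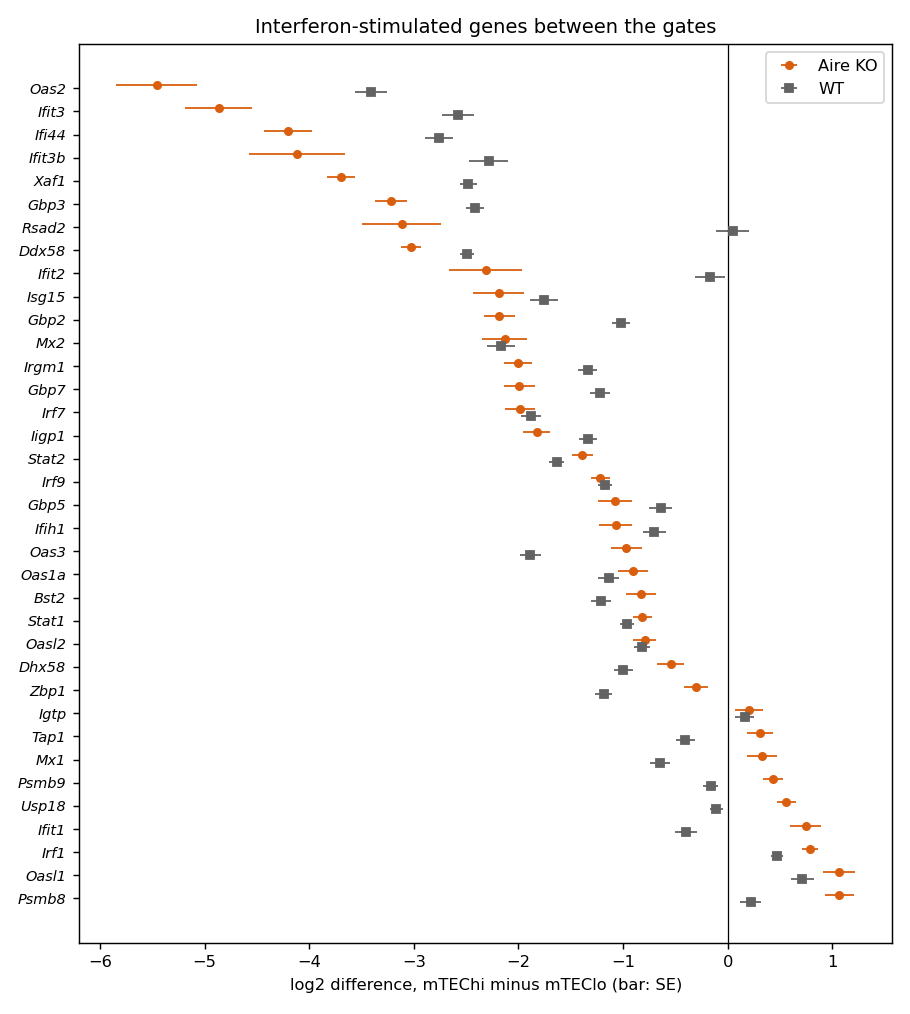
Interferon-stimulated genes ordered by their log2 difference (mTEChi minus mTEClo) in KO, with the KO and the WT value of each gene as separate points and bars for 1 SE. Most points lie below 0, with 27 of 36 lower in KO mTEChi, and Ifit1 lies above 0 in KO and below 0 in WT.

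The element was searched in the same 250-base windows, on both strands, as GAAA, any 2 bases and GAAA again (TTTC, any 2 bases and TTTC on the other strand), and 3.05% of 27025 promoters hold it. Among the interferon-stimulated genes 28 have a promoter in the table and 15 of these hold the element: 13 of 21 of the genes lower in KO mTEChi, 1 of 6 of the higher genes and 1 of 1 that passed in neither direction. The promoters of 3 falling genes and of Ifit1, the higher gene with the element, are shown with the matches in capitals.
Ifit3 (chr19:34583279-34583528, plus strand): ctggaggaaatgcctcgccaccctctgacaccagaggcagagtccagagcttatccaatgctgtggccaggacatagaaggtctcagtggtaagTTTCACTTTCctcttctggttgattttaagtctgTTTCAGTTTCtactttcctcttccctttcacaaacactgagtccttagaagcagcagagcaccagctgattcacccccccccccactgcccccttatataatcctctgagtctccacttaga
Gbp3 (chr3:142559794-142560043, plus strand): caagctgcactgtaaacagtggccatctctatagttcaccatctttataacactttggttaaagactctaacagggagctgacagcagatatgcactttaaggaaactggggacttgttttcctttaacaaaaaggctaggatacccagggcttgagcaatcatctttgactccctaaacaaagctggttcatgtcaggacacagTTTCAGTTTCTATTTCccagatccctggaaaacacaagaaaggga
Isg15 (chr4:156200819-156201068, minus strand): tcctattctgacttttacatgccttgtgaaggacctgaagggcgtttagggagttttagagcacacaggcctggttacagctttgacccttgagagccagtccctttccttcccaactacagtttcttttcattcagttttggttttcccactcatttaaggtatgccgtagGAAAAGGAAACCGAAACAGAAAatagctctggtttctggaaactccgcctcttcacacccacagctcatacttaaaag
Ifit1 (chr19:34640639-34640888, plus strand): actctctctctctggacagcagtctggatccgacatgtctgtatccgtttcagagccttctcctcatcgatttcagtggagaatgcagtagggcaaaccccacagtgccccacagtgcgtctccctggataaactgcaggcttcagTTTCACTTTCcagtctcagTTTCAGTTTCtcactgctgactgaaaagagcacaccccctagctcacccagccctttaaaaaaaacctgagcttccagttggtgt
Both Ifit genes hold 2 matches, at 156 and 122 bases before the start in Ifit3 and at 104 and 85 in Ifit1. Gbp3 holds 2, at 45 and 39, and Isg15 holds 3 overlapping matches from 78 to 66. The letters therefore occur in a promoter whose gene fell and in the promoter of its neighbour that rose, which describes the windows only.

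Tuft cells are chemosensory epithelial cells of the medulla with a taste-signalling pathway. All 26 tested tuft-cell genes were lower in KO mTEChi, with a median of -3.13, and 23 were lower in WT with a median of -2.63. Dclk1 (ENSMUSG00000027797, chr3:55242364-55539068), a kinase used as the tuft-cell marker, had 28.9, 18.8, 30.6 and 19.5 CPM in KO mTEChi and 429, 313, 505 and 549 in KO mTEClo. Trpm5, the cation channel of taste signalling (chr7:143069153-143094642), had 79.6, 40.8, 67.2 and 59.0 CPM against 683, 482, 725 and 597. The factor that specifies tuft cells, Pou2f3 (chr9:43123939-43210369), had 35.9, 19.6, 53.0 and 48.2 CPM against 176, 128, 165 and 178. The 3 falls were 4.20 ± 0.17, 3.34 ± 0.19 and 2.04 ± 0.21 (SE), with adjusted p of 2.5e-18, 4.1e-14 and 2.7e-09, and no mTEChi library overlapped the mTEClo range for any of them. The bitter-taste receptor genes Tas2r102, Tas2r110 and Tas2r120 had no count in any KO mTEChi library. Against the 3 counts that a group total of 0 allows, Tas2r102 was at least 58.3-fold lower there, Tas2r110 at least 29.8-fold and Tas2r120 at least 31.5-fold, bounds that cover counting error only.

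Microfold cells take up antigen in mucosal epithelium. Their genes were higher in KO mTEChi for 10 of 14 tested and lower for 1, with a median of 1.11. In WT 6 were higher and 2 lower, with a median of 0.26. The KO gate difference was above the WT one for 7 of the 14 and below it for 1. Over all tested genes these shares were 10.4% and 14.1%. Tnfrsf11b belongs to this group as well, and Ctsh, a lysosomal protease, had 404, 422, 329 and 349.7 CPM in KO mTEChi and 88.7, 77.2, 61.3 and 65.7 in KO mTEClo. Sox8, a transcription factor of microfold cells, had 32.8, 29.8, 20.7 and 23.3 CPM against 8.70, 6.90, 10.4 and 12.5, a rise of 1.39 where WT had -0.25 (KO minus WT 1.65, adjusted p = 6.9e-05). Ccl20, a chemokine of mucosal epithelium, rose by 1.92 in KO and stood at 0.34 in WT (KO minus WT 1.59, adjusted p = 0.0038). The exception was Gp2, the microfold-cell receptor for bacteria, at 5.69, 15.9, 27.2 and 27.4 CPM in KO mTEChi and 96.8, 57.1, 133 and 104 in KO mTEClo (-2.36, adjusted p = 3e-06).

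Cells with the programmes of other tissues showed no common direction. Of 27 ciliated-cell genes 10 were higher and 10 lower in KO mTEChi (median -0.30), of 30 keratinocyte genes 5 and 10 (-0.58), and of 28 neuroendocrine genes 6 and 9 (-0.61). The ionocyte genes gave 5 and 7 of 21 (-0.80), and the lung and secretory genes 5 and 9 of 23 (-0.86). In this order the higher shares were 37%, 16.7%, 21.4%, 23.8% and 21.7%, beside 28.8% of all tested genes. The lower shares were 37%, 33.3%, 32.1%, 33.3% and 39.1%, beside 28.3% of all tested genes. Without KO mTEClo replicates 1 and 2 the counts were 8 and 9, 3 and 10, 6 and 12, 5 and 6, and 3 and 11 in the same order. Many of these genes were not tested when the filter on low counts saw the KO libraries alone. Fitted on the KO libraries alone with a replicate block, 16 ciliated-cell genes were tested, with 7 higher, 5 lower and a median of 0.37, so the sign of the median turned. Ionocyte genes then gave 3 higher and 3 lower of 8 (0.06), also with a turned sign, and lung and secretory genes 3 and 8 of 12 (-0.73). The keratinocyte and neuroendocrine genes gave 5 and 10 of 24 (-0.38) and 6 and 7 of 19 (-0.59). In WT the same 5 groups had medians of 0.48, 0.26, 0.56, 0.99 and 0.61, over genes of which many pass the filter only with the WT libraries, so the WT medians are partly set by the filter and support nothing here. Foxj1, the master factor of motile cilia, was among the higher genes: it had 60.4, 44.0, 44.5 and 47.8 CPM in KO mTEChi and 9.25, 8.16, 9.77 and 6.87 in KO mTEClo. Its log2 difference of 2.54 was above the WT value of 0.56 by 1.98 (adjusted p = 0.0013). Axonemal dynein genes divided: Dnah9 was at 260.5 ± 55.5 CPM in KO mTEChi and 60.5 ± 10.2 in KO mTEClo, Dnah5 at 20.9 ± 8.15 and 88.3 ± 29.9 (SD, n = 4 each).

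Of the neuroendocrine genes 6 were higher and 9 lower. Among the higher ones Insm1, a transcription factor of endocrine cells, was at 200.2 ± 26.6 CPM in KO mTEChi and 39.5 ± 11.4 in KO mTEClo (SD, n = 4 each). Calca, which encodes calcitonin, was at 58.9 ± 12.8 and 8.20 ± 2.06 (SD, n = 4 each). The lower ones include Sst and Scg2, which had no count in KO mTEChi and are given below among the largest falls. In the ionocyte group Foxi1, the factor that specifies these ion-transporting cells, had 0.438, 0.408, 0.340 and 0.416 CPM in KO mTEChi and 8.70, 1.88, 2.66 and 8.09 in KO mTEClo, a fall of 3.65 (adjusted p = 5.9e-05), whereas the WT difference was 0.74 (KO minus WT -4.39, adjusted p = 5.8e-05). Slc12a2, the sodium, potassium and chloride cotransporter, fell by 2.76 (adjusted p = 1.4e-16). The lung and secretory genes Bpifa1, an antimicrobial airway protein, and Scgb1a1, the club-cell secretoglobin, had gate differences of opposite sign in KO and WT. Bpifa1 had 10.5, 8.97, 5.43 and 2.91 CPM in KO mTEChi and 60.9, 215, 84.7 and 122 in KO mTEClo, with a gate difference of -4.11 in KO and 0.74 in WT (KO minus WT -4.85, adjusted p = 1.3e-05). Scgb1a1 had -2.32 in KO and 1.59 in WT (KO minus WT -3.91, adjusted p = 7.2e-05). Of the keratinocyte genes Tgm3, a cross-linking enzyme of the cornified envelope, rose by 2.87 in KO and 2.80 in WT, while Sprr1a, an envelope precursor, fell by 0.90 in KO and was higher in WT mTEChi by 0.59 (adjusted p = 8.3e-04).

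Of 28 tested skeletal and cardiac muscle genes, 5 (17.9%) were higher and 7 (25%) lower in KO mTEChi (median 0.03). Over all tested genes 28.8% were higher and 28.3% lower. WT had 18 higher and 6 lower of the same 28 muscle genes (median 1.77). With the KO libraries alone and a replicate block, 18 of them were tested, with 4 higher, 8 lower and a median of -0.39, and the same limit of the filter applies to the WT values here and in the gut and liver group, where 21 were tested, with 16 higher and 2 lower. For 16 of the 28 the KO gate difference was below the WT one and for 1 it was above. Over all tested genes these shares were 14.1% and 10.4%. Acta1, skeletal muscle actin, had 1.75, 0.816, 0.679 and 0.416 CPM in KO mTEChi and 106, 39.5, 27.8 and 67.7 in KO mTEClo, a fall of 5.99 ± 0.59 (SE; adjusted p = 5.6e-09). Tnnt2, cardiac troponin T, went the opposite way with 238, 261, 238 and 229 CPM against 48.4, 36.4, 41.1 and 32.4, a rise of 2.62 ± 0.15 (SE; adjusted p = 2.9e-15). For neither gene did the fractions overlap, so 2 contractile genes separated the KO fractions in opposite directions.

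Gut and liver genes kept a lean to mTEChi in KO, with 22 of 42 tested higher, 3 lower and a median of 1.30, beside 37 higher, 2 lower and a median of 2.94 in WT. Leaving out the 6 genes with at most 3 counts in each KO fraction, and with genes at 0 in 1 fraction set to the bound of 3 counts, the KO median was 1.72. Cdx1, a factor of intestinal epithelium, had 245, 214, 167 and 194 CPM in KO mTEChi and 45.7, 46.4, 36.4 and 36.8 in KO mTEClo. Cdx1 rose by 2.33 in KO and 2.53 in WT. Apolipoprotein A-IV (Apoa4) was at 34.8 ± 2.98 CPM in KO mTEChi and 2.25 ± 2.60 in KO mTEClo (SD, n = 4 each). Foxa2, a factor of endoderm, was among the lower genes at -2.99.

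Genes of gland secretions (hormones, salivary and milk proteins) passed the filter on low counts for 19 of 38, which is reached through WT mTEChi for some of them, so a WT lean to mTEChi in this group is partly set by the filter. Of the 19, 2 were higher and 3 lower in KO, with a median of 0, or of 0.31 when the 7 genes with at most 3 counts in each KO fraction are left out. In WT 14 of these 19 were higher and none lower, with a median of 3.88. For 6 of the 19 the KO gate difference was below the WT one, beside 14.1% of all tested genes. Of the 19 tested, Ins2, Ppy and Dcpp3 had no count in any of the 8 KO libraries. Genes that depend on Fezf2 were higher in KO mTEChi for 8 of 15 tested and lower for 1. Their median was 1.74 (1.97 by the same treatment of genes near 0), beside 14 of 15 higher and 2.56 in WT. On the KO libraries alone with a replicate block 10 were tested, with 6 higher and 1 lower. The limit of the filter therefore applies to these WT values as well. Csn2, which encodes the milk protein beta-casein, had 432, 471, 454 and 524 CPM in KO mTEChi and 152, 160, 77.0 and 85.8 in KO mTEClo, a rise of 2.02 ± 0.22 (SE; adjusted p = 4.2e-08). Csn1s1, the alpha-casein gene of the same cluster, fell by 2.08 in KO, from 2.67 ± 1.78 CPM in mTEClo to 0.668 ± 0.569 in mTEChi (SD, n = 4 each), where the WT difference was 4.53 (KO minus WT -6.62, adjusted p = 1.6e-08).

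**Figure D3:**
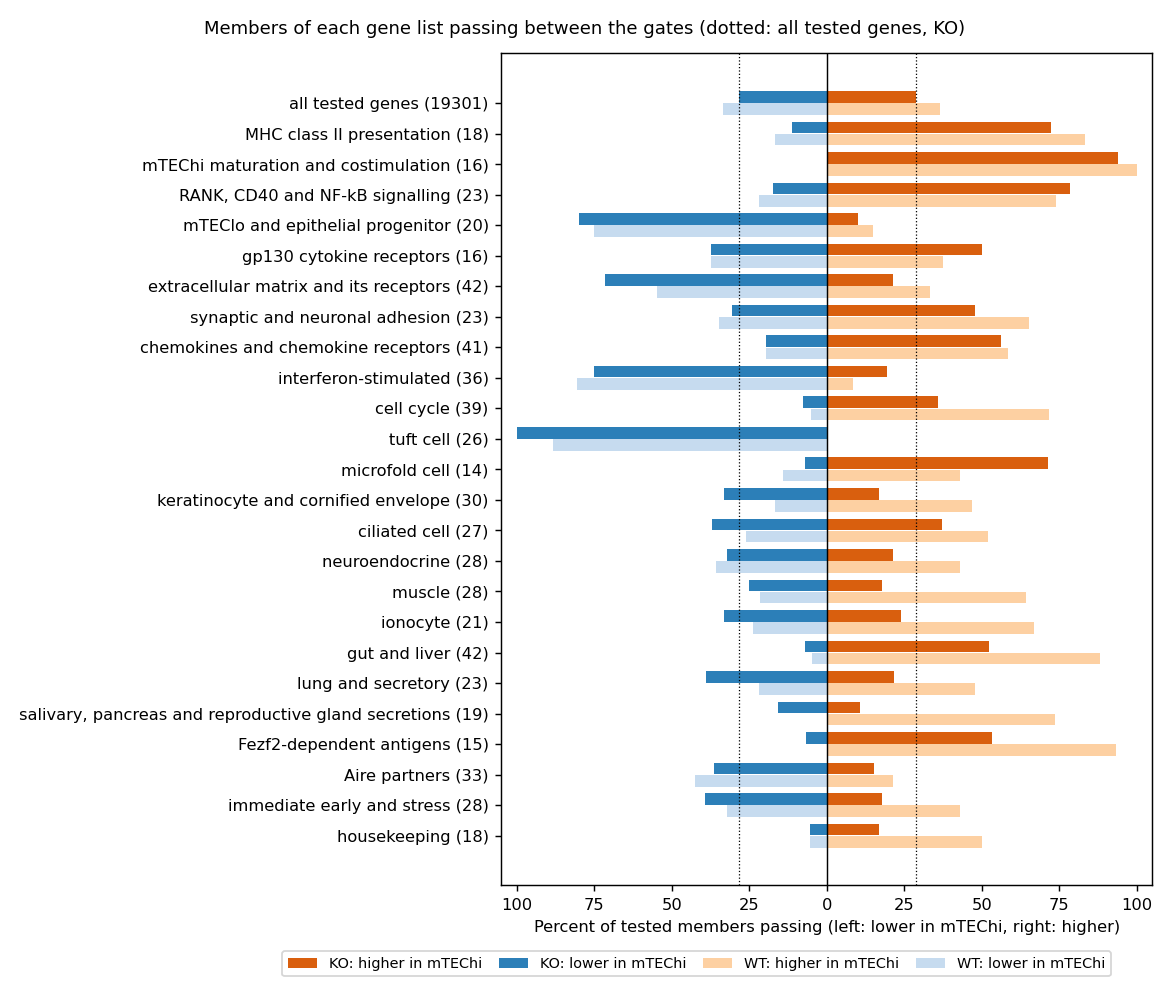
Percent of the tested genes of each group that were higher (to the right) or lower (to the left) in mTEChi than in mTEClo at an adjusted p under 0.05, in KO (dark) and WT (pale), with the number tested in brackets and dotted lines at the KO values of all tested genes. The KO bar of the 26 tuft-cell genes lies wholly on the left. Of the 19 gland genes 10.5% were higher and 15.8% lower in KO, and of the 21 ionocyte genes 23.8% and 33.3%. Over all tested genes the KO values were 28.8% and 28.3%. The WT bars of the gland and ionocyte genes are partly set by the filter on low counts.

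Chemokines and their receptors, which guide thymocytes through the medulla, were higher in KO mTEChi for 23 of 41 tested and lower for 8, with a median of 1.37 (1.17 when the 1 gene with at most 3 counts in each fraction is left out and genes at 0 in 1 fraction are set to the bound of 3 counts). Ccr7, the receptor for the medullary chemokines Ccl19 and Ccl21, had 217, 204, 176 and 195 CPM in mTEChi and 10.3, 8.78, 15.1 and 11.3 in mTEClo, a rise of 4.07 ± 0.23 (SE; adjusted p = 8.4e-15). Cxcr5, the receptor for Cxcl13, followed with 79.6 ± 5.57 CPM against 8.32 ± 3.39, and Ccr6, the receptor for Ccl20, with 78.9 ± 7.70 against 6.92 ± 4.15 (SD, n = 4 each). Ccl25, which draws thymocytes through Ccr9, had 215, 219, 256 and 289 CPM in mTEChi and 84.3, 80.9, 81.1 and 76.8 in mTEClo. Among the lower genes Cxcl12, the ligand of Cxcr4, had 2.62, 2.04, 3.40 and 4.57 CPM in mTEChi and 57.1, 71.5, 149 and 163 in mTEClo, and Cxcl14 had 0, 1.63, 0.340 and 2.50 and 70.7, 76.5, 61.0 and 72.8. Their falls of 5.14 and 5.95 were larger than in WT (KO minus WT -3.04 and -3.26, adjusted p = 7.5e-06 and 2.9e-06). The Ccr7 ligand gene Ccl21a was at 5.69, 7.75, 9.51 and 8.73 CPM in mTEChi and 40.8, 39.5, 23.4 and 20.4 in mTEClo, but near-identical copies of Ccl21 and Ccl19 exist in this genome, so their counts are uncertain.

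Synaptic genes, the group of Syn2, had 11 of 23 tested higher and 7 lower (median 0.52), beside 15 and 8 in WT (median 0.91). Dscam, a neuronal adhesion molecule, had 51.2, 52.6, 56.7 and 57.8 CPM in KO mTEChi and 3.26, 3.14, 3.85 and 2.94 in KO mTEClo. Syn3, another synapsin, rose by 1.89 in KO and 0.51 in WT (KO minus WT 1.37, adjusted p = 1.8e-06). The opposite direction held for Ptprd, a receptor phosphatase that organises synapses, at 39.0 ± 5.68 CPM in mTEChi and 274 ± 21.6 in mTEClo (SD, n = 4 each), and for the adhesion molecule Ncam1 (-2.74).

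Proteins that bind or help Aire had 5 of 33 genes higher (15.2%) and 12 lower (36.4%), with a median of -0.03. Over all tested genes 28.8% were higher and 28.3% lower. Without KO mTEClo replicates 1 and 2 the Aire group had 9 and 10, with a median of 0.01. Sirt1, a deacetylase that acts on Aire, had 631, 646, 610.2 and 650.4 CPM in KO mTEChi and 106, 139.9, 96.8 and 113 in KO mTEClo. Sirt1 thus rose by 2.49 ± 0.14 (SE; adjusted p = 2.3e-15), beside 2.92 in WT. Xrcc5, the Ku80 subunit of DNA-dependent protein kinase, fell by 2.96 in KO and by less in WT (-1.53, KO minus WT -1.44, adjusted p = 5.4e-06). Immediate early genes, which respond to signals and to handling of cells, had 5 of 28 higher (17.9%) and 11 lower (39.3%), with a median of -0.23. Among them Jun was at 63.5 ± 13.9 CPM in mTEChi and 211 ± 13.6 in mTEClo and Fos at 48.7 ± 19.7 and 159.5 ± 14.4 (SD, n = 4 each). Housekeeping genes had 3 of 18 higher (16.7%) and 1 lower (5.56%), with a median of 0.10. That direction was not stable: without KO mTEClo replicates 1 and 2 it was 8 higher and 1 lower (median 0.50), at 5 weeks 0 and 2 (-0.15), at 6 weeks 7 and 0 (0.40), and with division by library totals alone 2 and 3 (-0.03). That scaling put the median of all genes at -0.13 in place of -0.01 and gave 4866 higher and 6432 lower genes.

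Without KO mTEClo replicates 1 and 2, the maturation group had 15 higher and 0 lower with a median of 2.56, RANK and NF-kB signalling had 18 and 3 (1.45), class II genes 14 and 2 (1.08) and chemokines 22 and 8 (1.51). Of the groups that leaned to mTEClo, progenitor genes had 2 higher and 14 lower (-1.35), matrix genes 8 and 28 (-0.86), interferon-stimulated genes 7 and 26 (-1.26) and tuft-cell genes 0 and 26 (-3.31). Microfold genes had 12 and 1 (1.14), gut and liver genes 18 and 3 (1.21), Fezf2-dependent genes 8 and 0 (1.63), muscle genes 6 and 6 (0.23), gland secretions 2 and 3 (0), gp130 receptors 7 and 6 (0.23), synaptic genes 11 and 7 (0.48) and immediate early genes 5 and 13 (-0.45). Of the marker groups, fibroblasts had 6 higher and 7 lower, T cells 7 and 2, and B cells 12 and 0. Dendritic cells, macrophages and neutrophils had 10 and 2, endothelium 4 and 5, and red cells 1 and 0. Cortical epithelium had 8 and 8, and the mTEC markers 9 and 4. Over all 19301 genes the counts without those 2 libraries were 5607 and 5386, with a median of 0.

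The largest rises among genes that also passed without the 2 KO mTEClo libraries with mitochondrial counts included immune, metabolic and secreted proteins. Tlr12, a receptor for protozoan profilin, had 73.5, 68.5, 53.0 and 47.8 CPM in KO mTEChi and 2.72, 3.14, 0.592 and 0.736 in KO mTEClo, and Ctse, an endosomal protease, had 16.6, 18.8, 21.7 and 31.6 against 1.63, 0.627, 0.296 and 0.245. Their rises were 5.38 ± 0.31 and 5.20 ± 0.42 (SE; adjusted p = 4.3e-15 and 8.1e-12), and the Tlr12 rise was larger than in WT (2.79, adjusted p = 1.1e-05). Amdhd1, an enzyme of histidine breakdown, rose by 5.12, Oxgr1, the oxoglutarate receptor, by 5.58, and H2-M10.1, a non-classical class I gene, by 5.16. Gdf10, a secreted factor of the BMP family, had 4.81, 5.30, 4.75 and 5.41 CPM in mTEChi and no count in mTEClo, which makes it at least 18.4-fold higher. The other 6 had 1 to 3 counts in mTEClo, so they are given as ratios of CPM with exact 95% counting intervals. Abcb11, the bile salt export pump, had a ratio of 68.0 (11.8 to 2730), Art2b, an ADP-ribosyltransferase, 63.7 (11 to 2560), and C1qb, a complement subunit, 58.3 (10.0 to 2340). C1ql4 followed with 71.2 (12.3 to 2860), Fstl5 with 51.1 (17.1 to 251) and Gal3st2b, a sulfotransferase gene, with 49.6 (13.4 to 416).

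The largest falls were genes with almost no RNA in KO mTEChi. Scn1a, a neuronal sodium channel, had no count in KO mTEChi and 11.97, 25.1, 76.7 and 98.6 CPM in KO mTEClo, at least 178-fold lower. Sst, the hormone somatostatin, likewise had no count in mTEChi and 55.5, 0.627, 109.5 and 54.2 CPM in mTEClo (at least 185-fold), where replicate 2 stood far below the rest. Muc16, a large surface mucin, was at 0 in mTEChi and at 11.97, 19.4, 26.6 and 9.56 CPM in mTEClo (at least 56.8-fold), although WT mTEChi had a mean of 64.1 CPM and WT mTEClo 16.8. The bounds were 129-fold for Scg2, a secretory granule protein, 96.3-fold for Mrgprf, an orphan receptor, 44.2-fold for Clec4e, a receptor for mycobacterial lipid, and 40.6-fold for Kcnk1, a potassium channel. With 1 to 3 counts in mTEChi, Mgp, an inhibitor of calcification, had a mTEClo to mTEChi ratio of 365 (101 to 3020) and Slitrk4, a neuronal membrane protein, 381 (68.0 to 15100). The remaining 3 of the 12 are the taste receptors given above.

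The KO and WT comparisons share no library, so their lists can be set against each other. Both come from the same fit, with a shared estimate of the spread and a shared filter, so the lists are not independent. In WT 7069 genes (36.6%) were higher and 6472 (33.5%) lower in mTEChi. Both lists held 4397 genes higher in mTEChi, which is 79.1% of the KO list and 62.2% of the WT list, and 4195 lower, 76.8% and 64.8%. In 361 genes WT was higher and KO lower in mTEChi, and in 163 the reverse held. Across the tested genes the 2 log2 differences had a Pearson correlation of 0.664 and a Spearman correlation of 0.717, where genes are not independent replicates. Changes over 4-fold were 2807 higher and 691 lower in WT, against 1820 and 1634 in KO. The filter on low counts kept 15561 genes when it saw the KO libraries alone, in place of 19301. Some genes are therefore tested only through WT libraries. The WT counts here and the KO to WT split below are partly set by the filter. The test of the gate difference itself found 2012 genes (10.4%) with a higher value in KO than in WT and 2720 (14.1%) with a lower one. With counts summed over libraries of the same group, age and sex it found 619 and 1477. Scaling moved this split. It was 1660 and 2975 with edgeR's RLE factors in place of TMM, and 1067 and 3782 with library totals. The median difference went from -0.03 to -0.08 and -0.20.

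The genes with the smallest p for a KO value above the WT value start with Lrp1b and Cxcl16. Lrp1b, a large receptor of the LDL receptor family, had 147, 162, 282 and 249.9 CPM in KO mTEChi and 32.1, 38.3, 31.7 and 38.0 in KO mTEClo, beside WT means of 97.4 and 129. Its gate difference was 2.59 in KO and -0.41 in WT, apart by 2.996 ± 0.19 (SE; adjusted p = 7.4e-12). Cxcl16, a membrane-bound chemokine, had 184, 192, 152 and 178 CPM in KO mTEChi and 84.3, 90.3, 93.8 and 91.5 in KO mTEClo, where WT had 80.0 and 107, apart by 1.38 (adjusted p = 1.6e-09). The other 6 with the smallest p in this direction were Slc4a11, an ion transporter (1.71), Atxn1, a transcriptional corepressor (1.56), Ltbp2, a matrix protein (1.53), Psd3, an exchange factor (1.44), Ptpn14, a phosphatase (1.41), and Il18r1, the IL-18 receptor (1.24).

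In the opposite direction Sparc, given above, had WT means of 79.4 CPM in mTEChi and 109.9 in mTEClo (log2 difference -0.46, adjusted p = 5.5e-05), and the gate differences were apart by -5.17 ± 0.23 (SE; adjusted p = 1e-15). Fbln2, an elastic-fibre protein, had 0, 0.816, 0 and 0 CPM in KO mTEChi and 46.8, 33.2, 38.2 and 33.4 in KO mTEClo, a ratio of 187 (51.5 to 1550) in favour of mTEClo. WT had the reverse order, 33.4 CPM in mTEChi and 14.4 in mTEClo. The other 6 were Otof, a calcium sensor of hair cells (-6.21), Nrxn3, a presynaptic adhesion protein (-5.93), Ucma, a cartilage matrix protein (-4.24), Cacna2d2, a calcium-channel subunit (-4.17), Npl, an enzyme of sialic acid breakdown (-3.72), and Myof, a membrane-repair protein (-2.10). All KO mice were male, 4 of the 8 KO libraries are of 6 weeks, and 6 of them lack mitochondrial counts, so these features cannot be fully told apart from the knockout.

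**Figure D4:**
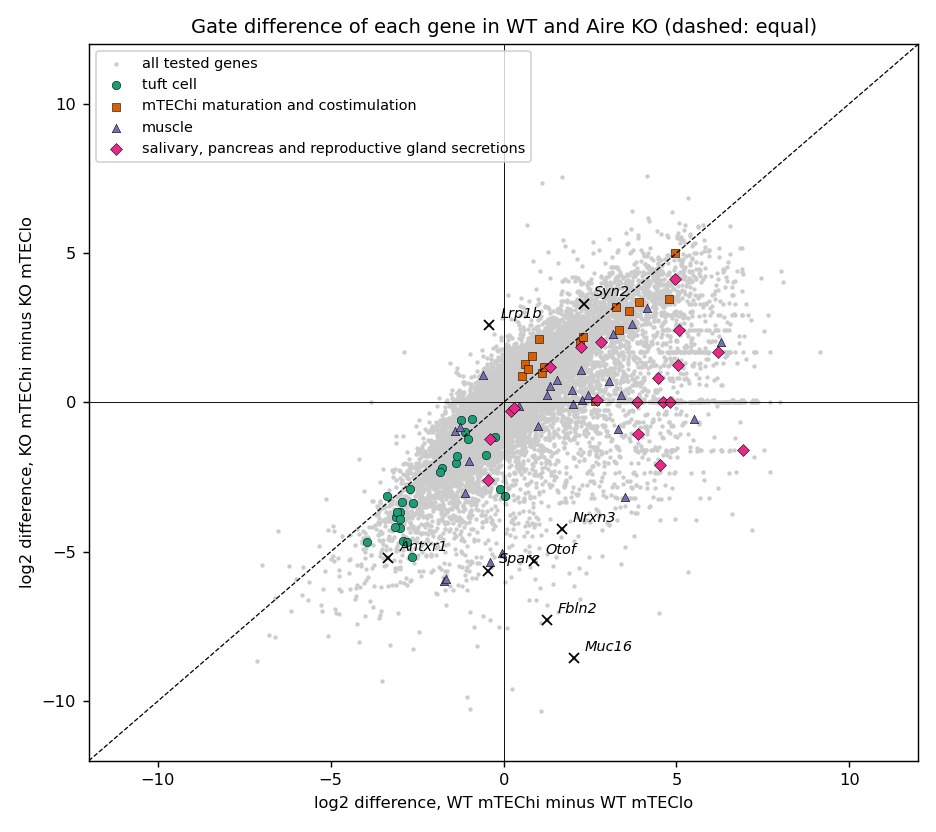
Log2 difference between mTEChi and mTEClo for each tested gene in KO (vertical) against WT (horizontal), with colours for 4 gene groups, crosses for 8 named genes and a dashed line of equal values; points on a horizontal line at 0 have no KO counts. Antxr1 lies at -5.22 in KO and -3.33 in WT, Lrp1b above 0 in KO and below 0 in WT, and Sparc and Fbln2 far below the dashed line.

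The KO libraries of 5 and of 6 weeks allow the comparison to be made at each age, with 2 libraries per fraction. At 5 weeks 4622 genes (23.9%) were higher and 4345 (22.5%) lower in mTEChi, and at 6 weeks 5145 (26.7%) and 4860 (25.2%). At both ages 7235 genes passed in the same direction and 34 in opposite directions. The gate difference itself was higher at 6 than at 5 weeks in 196 genes (1.02%) and lower in 116 (0.601%). Within KO mTEClo, 1502 genes were higher and 1732 lower at 6 weeks, and within KO mTEChi 404 and 452. Of 26 tuft-cell genes 25 and 26 were lower in mTEChi at 5 and 6 weeks, with medians of -3.10 and -3.14, and for 0 of them did the gate difference pass as different between the ages.

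The gate difference of cell-cycle genes was higher at 6 than at 5 weeks for 8 of 39 tested and lower for 0. Over all 8 libraries 14 of the 39 were higher and 3 lower in KO mTEChi, with a median of 0.53, but without the 2 mTEClo libraries that have mitochondrial counts, both of 5 weeks, 27 were higher and 2 lower with a median of 2.22. At 5 weeks alone 6 were higher and 5 lower (0.14), at 6 weeks 23 and 2 (1.60), and with counts summed over libraries of the same group, age and sex 6 and 2 (0.47). Cdk1, the kinase that drives entry into mitosis, had 70.4, 70.1, 39.4 and 44.1 CPM in mTEChi and 21.8, 30.1, 6.22 and 2.698 in mTEClo. Its log2 difference was 1.45 at 5 weeks and 3.26 at 6 weeks, apart by 1.81 (adjusted p = 0.016). Mki67, a protein of dividing cells, had 110.2, 129.7, 70.0 and 83.2 CPM in mTEChi and 97.9, 164, 25.2 and 11.3 in mTEClo. The fractions overlapped, and its difference was 0.53 (adjusted p = 0.4) over all libraries, or 2.45 (adjusted p = 2.8e-05) without those 2. By age it was -0.12 and 2.10, a gap that missed the threshold (2.22, adjusted p = 0.063). Of the 39 genes 32 were lower at 6 than at 5 weeks within mTEClo and 10 within mTEChi. Maturation genes also had a larger gate difference at 6 weeks for 4 of 16: Cd40 by 1.07, Cd80 by 1.34, Icosl, a costimulatory ligand, by 1.27 and Tnfrsf11a by 0.88. In KO mTEClo the libraries of 5 weeks are those with mitochondrial counts, so age and library set cannot be told apart there.

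**Figure D5:**
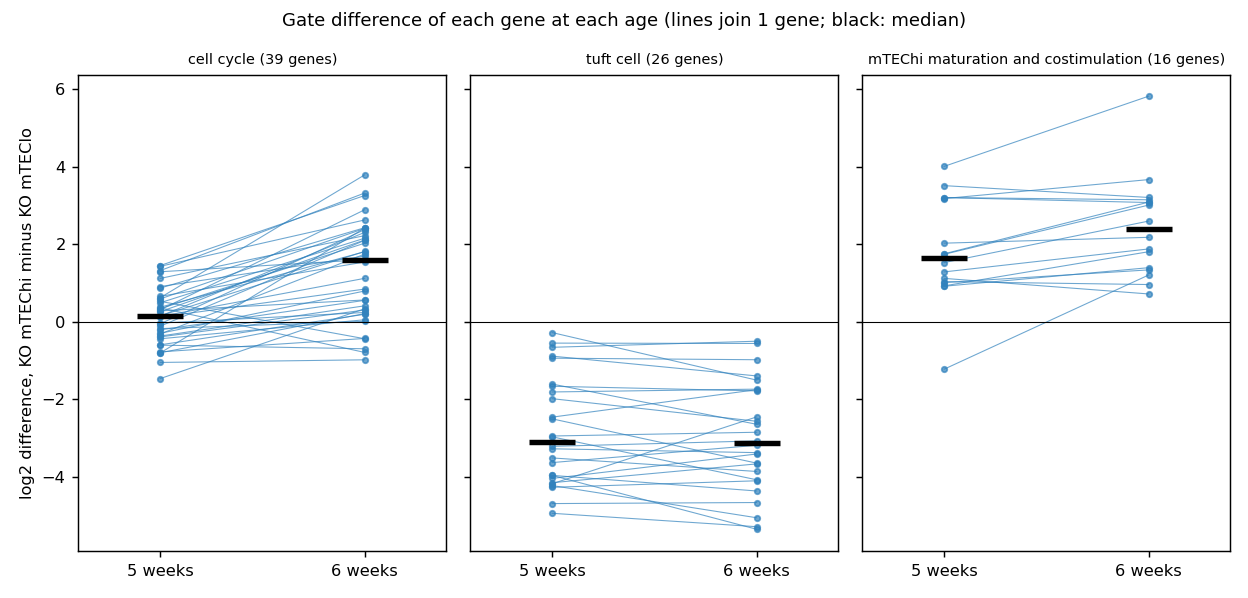
Log2 difference between KO mTEChi and KO mTEClo at 5 and at 6 weeks (2 libraries per fraction and age) for cell-cycle, tuft-cell and maturation genes, with 1 thin line per gene and a black bar at each median. Tuft-cell genes keep medians of -3.10 and -3.14, while the cell-cycle genes go from a median of 0.14 to 1.60.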

How the data were processed

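RNA of sorted mTECs was primed by not-so-random primers plus oligo(dT), for total-RNA libraries cut by Tn5, per the labels' protocols; 23 libraries were compared in 4 groups by genotype and MHC class II gate. The authors deposited a table of read counts per Ensembl gene (raw, whole numbers), used here, and a normalized table, not used here. The submitters' processing notes name edgeR, HTSeq 0.11.2, Picard 2.21.1, SAMtools 1.9, fastp 0.20.0 and STAR 2.7.3a, and the builds mm10 and GRCm38; roles and settings are not given in the sources used here. Tn5 libraries keep no strand, so overlapping, antisense and near-identical genes are uncertain. Positions and names came from GENCODE M21 (GRCm38; 53402 of 53402 IDs matched), and promoter sequences from RefSeq (GRCm38.p6).

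The 37 mitochondrially encoded genes were left out. Counts were scaled by TMM, filtered with filterByExpr (minimum count 10) and fitted with edgeR 4.0.16 (quasi-likelihood; R 4.3.3, limma 3.58.1) over all 23 libraries with terms for group and sex. The sex term draws only on WT libraries. p-values were adjusted by Benjamini-Hochberg over 19301 genes with a threshold of 0.05; SE is the log2 difference divided by the root of the F value. CPM are counts relative to the TMM-scaled library total. DESeq2 1.42.0, other scalings, filters, left-out libraries and a replicate block were alternatives. The labels give both KO fractions the replicate numbers 1 to 4; deviations of same-numbered libraries from their group means correlated at 0.49, 0.42, 0.23 and 0.56 over 5000 genes, each over 0.1, so they count as paired by the rule used. Different-numbered libraries of the same age correlated about as strongly (0.49, 0.40, 0.20 and 0.60) and those of different ages at -0.59 to -0.16, so the correlations follow age and do not single out the number. The 5-week libraries of mTEChi differed from each other slightly beyond counting noise (chi-square per degree of freedom 1.34), as did those of 6 weeks (1.28), and each was kept as a library. In mTEClo these values were 1.62 and 3.99. Pairs of different ages gave 4 to 6.39 in mTEChi and 6.28 to 12.2 in mTEClo. The main fit has no age term and counts libraries of the same age as separate. A group total of 0 was set to 3 counts for a bound, and 1 to 3 counts were given with exact 95% intervals, which cover counting error only. On data simulated for the KO comparison with 18126 genes, 50 of 94 genes changed 2-fold and 90 of 95 changed 4-fold were called, and 3 of 17937 unchanged genes. The simulation changed far fewer genes than the 57.1% called here and had no difference between ages or library sets. Its rates therefore do not carry over to this comparison.

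Genes named are Aire and the 4 markers; the 12 largest rises and falls among genes that also passed without KO mTEClo replicates 1 and 2, averaged 5 CPM or more in the higher fraction and did not overlap; up to 4 genes of each list with the smallest p, and further members where a list is described; and the 8 genes in each direction with the smallest p for the KO to WT difference. The markers and the 32 gene lists (814 entries, 770 symbols, 696 of them tested) were chosen with earlier results of these data known, so they are no independent support. In the table, 0 columns belong to other series. Some genes of the lists are not reported here by name.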

Additional observations from a re-analysis of the deposited data

Results flagged for a closer look

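Among the named genes, 12 had 1 KO library far from the other 3 of its fraction (gap over range above the 95% critical value of Dixon's test; chance alone marks about 1 in 20 groups of 4). In 9 of them the library held a trace of RNA where the rest had none: Abcb11 (0.296 CPM in mTEClo 3), Art2b (0.627, mTEClo 2), C1qb (0.245, mTEClo 4), C1ql4 (0.627, mTEClo 2), Fbln2 (0.816, mTEChi 2), Mgp (0.875, mTEChi 1), Myl1 (0.679, mTEChi 3), Slc4a1 (0.296, mTEClo 3) and Slitrk4 (0.416, mTEChi 4). Cxcl2 stood at 4.89 CPM in mTEClo 1 against 2.37 to 2.7 in the others, Dnah9 at 45.4 in mTEClo 4 against 63.6 to 67.1, and Xaf1 at 9.38 in mTEChi 2 against 7.44 to 7.49.

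The gate difference was tested to differ between KO and WT in 2012 genes with a higher and 2720 with a lower KO value. Among the markers, KO minus WT was -1.89 for Antxr1, -1.03 for Il6st, -0.61 for Marc1 and 1.00 for Syn2. Of the genes with the smallest p it was 3.0 for Lrp1b, 1.71 for Slc4a11, 1.56 for Atxn1, 1.53 for Ltbp2, 1.44 for Psd3, 1.41 for Ptpn14, 1.38 for Cxcl16 and 1.24 for Il18r1. The negative values were -8.52 for Fbln2, -6.21 for Otof, -5.93 for Nrxn3, -5.17 for Sparc, -4.24 for Ucma, -4.17 for Cacna2d2, -3.72 for Npl and -2.10 for Myof. Fitted values of genes with 3 or fewer counts in a fraction, Fbln2 among them, depend on the prior count.

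Within KO the gate difference was tested to differ between the ages in 196 genes with a higher and 116 with a lower value at 6 weeks. Outside the tested genes, mitochondrially encoded genes held 6225 and 6178 counts in KO mTEClo 1 and 2 and none in the other 6 KO libraries.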

How the results depend on the processing

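The KO counts of 5561 higher and 5461 lower genes stayed within 1.5 times under the scalings, filters, DESeq2 (5658 and 5268), the age term and the library sets (5045 and 4904 without all libraries with mitochondrial counts). A 2-fold minimum gave 3546 and 3239. Leaving out 1 KO library gave 5218 to 5742 higher and 5176 to 5597 lower. Summing counts over libraries of the same group, age and sex gave 4888 higher and 4690 lower of 22401 genes. With the 8 KO libraries alone the counts were 4329 and 4221, and with the replicate number as a block 4720 and 4563 of 15561 genes; in the paired fit the KO to WT difference gave 2389 and 2959, and no other call changed by over 1.5 times. In WT, no filter gave 12692 higher genes, and a 2-fold minimum gave 4550 higher and 2386 lower. The KO to WT difference, 2012 higher and 2720 lower, was more sensitive: higher genes numbered 1067 with library totals, 619 with libraries of 1 age summed, 1100 at an adjusted p under 0.01 and 507 over 2-fold, and lower genes 1477 with summed libraries and 1732 at 0.01. Its ranges without 1 KO library were 1620 to 2110 and 2468 to 2857. Recomputed once for each alternative, the values of named genes kept direction and call in 4059 cases, lost the call in 20 and reversed in 0. The lost calls include Csn1s1, Npl, Slc4a11, Ywhaz and Tfrc at 5 weeks, Polr2a at 6 weeks, and Marc1 (KO minus WT -0.61, adjusted p = 0.11), Slc4a11, Tfrc and Ywhaz with summed libraries, with some of these housekeeping genes also lost elsewhere. The WT and difference fits without all libraries with mitochondrial counts could not be made, since every WT library has them. Depth limits genes near 0.276 CPM in KO mTEClo and 0.297 in KO mTEChi, the level of 3 counts in a group. The causes of these shifts were not tested.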
